A study of Drosophila montana and Drosophila virilis with 10 samples.

Results

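The genes described here are 41 identifiers whose level differed at least 3-fold between pools of D. montana flies kept under the same condition. They were chosen from 15342 identifiers by 2 criteria, a mean of at least 20 CPM (counts per 1000000 reads on genes) over the 6 D. montana libraries, which 6638 met, and the 3-fold difference. The fold difference was the ratio of the highest to the lowest CPM, each with 1 CPM added, within the 3 acclimated or within the 3 control libraries. Of the 41, 12 passed within the acclimated pools alone, 22 within the control pools alone and 7 within both. The D. montana values chose these genes, so their spread between D. montana pools is a description and carries no test. The question was which library set each gene apart and whether the genes moved together.

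The libraries were made from whole-fly RNA and sequenced on SOLiD instruments, from flies that were cold-acclimated or served as controls. The D. montana flies were strain 175OJ8 from Oulanka in Finland, with 3 acclimated pools at a stated age of 24 to 26 days after eclosion and 3 control pools at 21 to 23 days, 10 flies to a pool. The D. virilis flies were strain TOY3F9 from Toyama in Japan, with 2 acclimated pools at 29 to 30 days and 2 control pools at 27 to 28 days, 20 flies to a pool. The stated ages run from 21 to 30 days with 1 library to each day, and follow the deposit order of the samples day by day, which leaves doubt whether they are measured ages. As stated, age cannot be told apart from the pool or from acclimation. The labels do not say whether the pools came from separate cultures, so the spread behind each p-value is that of these pools and may be technical.

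Both species belong to the Drosophila virilis group, in which D. montana is a northern, cold-tolerant species, and cold acclimation is the gain in cold tolerance that insects show after a period of mild cold. A library of whole flies sums the RNA of every tissue of every fly in the pool. A transcript made in 1 tissue, or in few of the flies, therefore enters in proportion to how much of that tissue or how many such flies the pool holds, and fewer cells of a type cannot be told apart from less RNA per cell. The files give FlyBase identifiers without gene names, and the gene table used here, of a D. montana assembly, matched 0 of them. No role, position or sequence is therefore given for any identifier, and lists of tissue markers could not be applied.

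The D. montana libraries had 1518027 to 2235850 reads on genes, and those of D. virilis 650517 to 1316804. Reads placed at more than 1 position made up 23.8%, 18.4% and 22.4% of acclimated libraries 1, 2 and 3 of D. montana and 18.9% to 19.1% of its control libraries. Genes that share reads with a near-identical copy would lose them to this class, so their counts are uncertain. The 41 identifiers together held 0.651% to 0.849% of the gene reads in the acclimated and 0.677% to 1.05% in the control D. montana libraries.

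Within the D. montana groups, passing the 3-fold limit was uncommon. It was met by 19 of the 6638 identifiers within the acclimated pools (0.286%) and by 29 within the control pools (0.437%), and 41 met it in either (0.618%). The 7 that passed in both groups give 48 cases of an identifier in a group. The ratio was under 4 in 32 of these cases, from 4 to 5 in 5, from 5 to 20 in 7 and above 20 in 4. FBgn0256701 (ratio 3.01) and FBgn0200376 (3.02), both passing among controls, lay just inside the limit, and FBgn0208675 (2.98, acclimated pools) and FBgn0199248 (2.98, control pools) just outside it. With 60 identifiers between 2.5 and 3, the limit divides a continuous range.

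In each case 1 library was named as the one that stood apart, namely the library beyond the larger of the gaps between the 3 ordered values of log2(CPM + 1). Leaving that library aside brought the ratio of the other 2 under 3 in all 48 cases and under 2 in 47, the exception being FBgn0210110 at 2.08. The larger gap defined that library, so the ratio of the other 2 could be at most the square root of the full ratio. In the 32 cases with a ratio under 4 it was bound to be under 2, and the result is largely fixed by the definition. In 34 cases the gap of the library was at least 2 times the smaller gap, here called clear, and in 14 the 3 values were graded. The clear cases include FBgn0209575, at 22.5, 9.88 and 33.2 CPM in controls 1, 2 and 3. The split into clear and graded was not made for other identifiers, so it describes these cases only. The library was the high one in 23 cases and the low one in 25. Against both other libraries pooled, the counting interval (exact binomial, 95%) of its fold difference excluded 1 in 48 of 48 cases and lay wholly beyond 2-fold in 34. These intervals cover counting error only, and the cases were chosen for their spread.

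**Figure D1:**
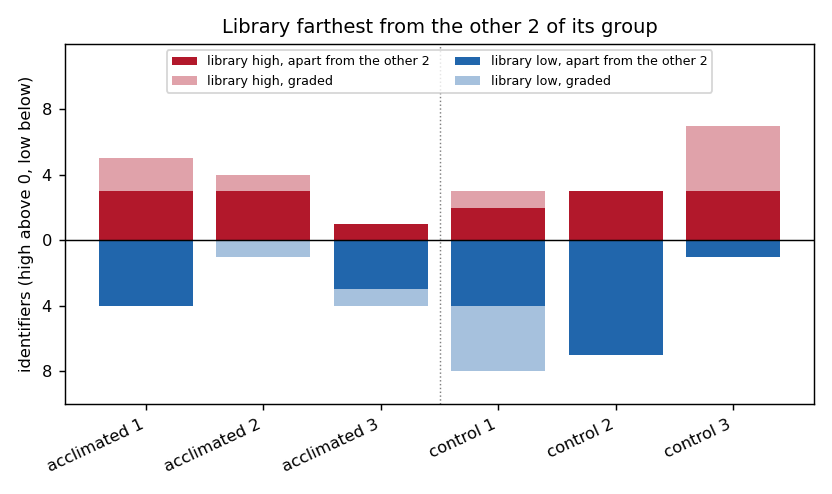
Number of identifiers (vertical axis) for which each D. montana library (horizontal axis, acclimated left, control right) was farthest from the other 2 of its group, with libraries that were high drawn above 0 and libraries that were low below. Dark bars are clear cases and pale bars graded ones, and control 1 and control 2 were mostly low (8 and 7 identifiers) where control 3 was mostly high (7 identifiers).

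No single library accounted for the 41 identifiers. Among the acclimated pools, library 1 stood apart in 9 of the 19 cases (5 high and 4 low), library 2 in 5 (4 high and 1 low) and library 3 in 5 (1 high and 4 low). Among the control pools, library 1 stood apart in 11 of the 29 cases (3 high and 8 low), library 2 in 10 (3 high and 7 low) and library 3 in 8 (7 high and 1 low). Without control 3 the rule found 25 identifiers in place of 41, and without any other single library 29 to 35. The direction was partly that of less variable genes. Of the 215 identifiers with a ratio of 2 to 3 among controls, control 1 was the low library for 36.7% and control 3 the high one for 30.2%, whereas control 2 was the low one for 11.6% of these and for 24.1% of the 29. Of the 162 such identifiers among the acclimated pools, library 1 was the one apart, low for 34.6% and high for 27.8%. Acclimated 1 also had the highest share of reads placed more than once, whose part in these cases was not tested.

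The 4 widest differences were each due to 1 library that was high where every other D. montana library was low. FBgn0207736 had 1.66, 1.11 and 2.68 CPM in the acclimated libraries and 0.577, 345 and 0.504 CPM in the controls, which were 1, 523 and 1 reads. Control 2 was 640-fold above controls 1 and 3 pooled, with a counting interval of 176 to 5303, and the ratio by the rule was 230. FBgn0208306 had 5.54, 308 and 5.37 CPM in acclimated 1, 2 and 3 and 19.1, 6.59 and 4.03 CPM in controls 1, 2 and 3, a ratio of 48.5 among the acclimated pools. It also passed among the controls, at a ratio of 3.99, where control 1 was the high library on 33 reads.

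FBgn0204686 was chosen for mention after its values were seen. It had 13.3, 615 and 15.7 CPM in the acclimated and 17.9, 9.88 and 17.6 CPM in the control libraries, so acclimated 2 was apart again, at a ratio of 43.1. In D. virilis it had 24.3 and 1945 CPM in the acclimated libraries, 24 and 2561 reads, and 15.4 and 17.2 CPM in the controls, so there too 1 acclimated library stood far above the rest. FBgn0201359 had 4.43, 4.43 and 145 CPM in the acclimated and 6.93, 3.29 and 6.04 CPM in the control libraries, a ratio of 27.0 due to acclimated 3. No read of it was counted in any of the D. virilis libraries, which allows a level of up to 3.04 and 2.28 CPM in the acclimated and 4.61 and 3.22 CPM in the control libraries (3 counts of the total, counting error only).

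These 4 identifiers passed the level criterion through the high library: without it their mean over the other 5 D. montana libraries was 1.31 to 14.9 CPM. FBgn0210110, at 87.6 CPM in control 2 against 8.66 and 19.1 CPM in controls 1 and 3, was the only other identifier of which this held, with a mean of 14.9 CPM without control 2. The same library was high for FBgn0208306 and FBgn0204686, and the same for FBgn0207736 and FBgn0210110, but in other libraries these pairs differed. In D. virilis FBgn0208306 was at 70.9 and 115 CPM in the acclimated and 109 and 7.51 CPM in the control libraries, so its low library there was control 2, where FBgn0204686 was near its level in control 1.

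**Figure D2:**
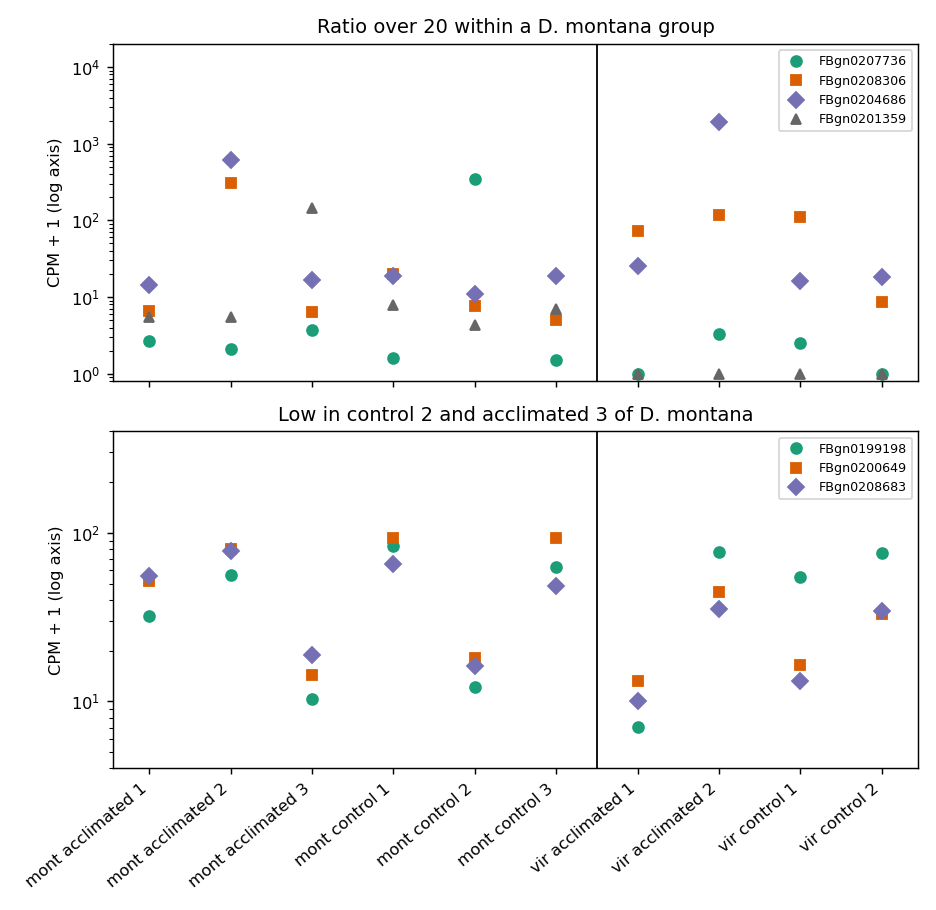
CPM + 1 on a log axis in each of the 10 libraries (horizontal axis, D. montana left of the line, D. virilis right, acclimated before control within each), 1 point per library, with no error bars. The upper panel has the 4 identifiers with a ratio above 20, each high in 1 D. montana library, and the lower panel has FBgn0199198, FBgn0200649 and FBgn0208683, all 3 low in acclimated 3 and control 2 of D. montana.

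A different kind of variation was seen in 3 identifiers that passed in both groups and followed each other closely, singled out after their values were seen. FBgn0199198 had 31.0, 55.4 and 9.39 CPM in acclimated 1, 2 and 3 and 82.6, 11.2 and 61.4 CPM in controls 1, 2 and 3. FBgn0200649 had 50.9, 79.2 and 13.4 CPM in the acclimated and 91.8, 17.1 and 91.7 CPM in the control libraries. FBgn0208683 had 54.3, 77.6 and 17.9 CPM in the acclimated and 64.1, 15.2 and 47.3 CPM in the control libraries. All 3 were thus lowest in acclimated 3 and control 2, and highest in acclimated 2 of the acclimated pools. Of the controls, control 1 was highest for FBgn0199198 and FBgn0208683, while controls 1 and 3 were level for FBgn0200649. Their ratios were 5.43, 5.56 and 4.16 among the acclimated and 6.85, 5.12 and 4.03 among the control pools. Over the 6 libraries, with each group's mean removed, their pairwise correlation was 0.989 to 0.992 (Pearson r, a description).

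The same 3 were then read in D. virilis, where the values had also been seen before they were singled out. FBgn0199198 had 6.08 and 75.9 CPM in the acclimated and 53.8 and 75.1 CPM in the control libraries, FBgn0200649 had 12.2 and 43.3 CPM against 15.4 and 32.2 CPM, and FBgn0208683 had 9.11 and 34.2 CPM against 12.3 and 33.3 CPM. Each was lower in library 1 than in library 2 of both groups, by ratios of 10.9, 3.37 and 3.48 in the acclimated and 1.39, 2.03 and 2.58 in the control pools. Of all 6329 identifiers with a mean of at least 20 CPM in D. virilis, 3.1% reached a ratio of 3 between the acclimated pools, and 70.4% of those were, like these, higher in acclimated 2. Between the control pools 1.61% reached it, of which 37.3% were higher in control 2. With 2 pools to a group, a shared order is a shared sign only. FBgn0200649 and FBgn0208683 reached a mean of 20 CPM in D. virilis only through acclimated 2, where they were high. The median difference of all 6329, library 2 minus library 1, was 0.06 in the acclimated and −0.11 in the control pools on the log2(CPM + 1) scale. For the 26 of the 41 identifiers at that level it was 0.70 and 0.30, so the order was not particular to these 3.

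FBgn0197872 and FBgn0204203, also named after their values were seen, had part of the same profile. FBgn0204203 had 91.9, 132 and 42.5 CPM in the acclimated and 158, 44.8 and 44.8 CPM in the control libraries, low in acclimated 3 like the 3 above but low in 2 of the controls. FBgn0197872 had 104, 142 and 55.0 CPM in the acclimated and 170, 50.7 and 88.6 CPM in the control libraries. Both were higher in library 2 than in library 1 of each D. virilis group. Others of the 41 without this D. montana profile had that order too, such as FBgn0013069, FBgn0013070 and FBgn0014836, while FBgn0197360 and FBgn0209509 had the reverse order.

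FBgn0203180, FBgn0205786 and FBgn0209575 were low in control 2 only. FBgn0205786 had 47.6, 39.3 and 49.2 CPM in the acclimated and 185, 56.0 and 178 CPM in the control libraries. Their acclimated libraries lay close together, with ratios of 1.18 to 1.24. FBgn0204243 was low in control 2 as well, at 18.3, 8.31 and 15.7 CPM in the acclimated and 40.4, 13.2 and 58.9 CPM in the control libraries. FBgn0205783 was the 1 identifier marked by a low value in control 3, with 83.0, 67.0 and 54.1 CPM in the acclimated and 68.7, 66.5 and 14.6 CPM in the control libraries.

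Low values in control 1 marked 8 identifiers. FBgn0204846 had 9.41, 7.76 and 7.60 CPM in the acclimated libraries and 22.5, 53.4 and 81.1 CPM in controls 1, 2 and 3. FBgn0014836, FBgn0197803, FBgn0206411 and FBgn0208064 followed the same course among the controls, with control 1 lowest and control 3 highest. FBgn0197565, FBgn0207724, FBgn0208065 and FBgn0200376 were the other 4 low in control 1. The values of FBgn0207724 were 36.0, 61.5 and 25.5 CPM in the acclimated and 9.81, 33.6 and 34.2 CPM in the control libraries. FBgn0197803 was marked by its high value in control 3, 137 CPM against 22.5 and 40.8 CPM in controls 1 and 2. FBgn0208735 had the widest difference of those high in control 3, with 470 CPM there against 58.9 and 97.5 CPM in controls 1 and 2, a ratio of 7.86, while its acclimated libraries were at 34.3, 18.3 and 35.8 CPM. FBgn0199685, FBgn0201402, FBgn0207984, FBgn0210443 and FBgn0256701 were also highest in control 3 by this measure, at ratios of 3.01 to 3.34, and FBgn0200403 was highest in control 2 at 3.12.

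Among the acclimated pools, library 1 was low for FBgn0197360, FBgn0200670, FBgn0207533 and FBgn0208223 and high for FBgn0013069, FBgn0013070, FBgn0201402, FBgn0209509 and FBgn0210031. FBgn0197360 was the identifier with the most reads of the 41, at 1010.3, 4000.2 and 3188 CPM in the acclimated and 4947, 3086 and 5530.0 CPM in the control libraries. FBgn0013070 had 1199, 304 and 304 CPM in the acclimated libraries and 675, 563 and 717 CPM in the controls. Acclimated 1 was thus above all controls, while acclimated 2 and 3 were below all of them. FBgn0199412 and FBgn0210443 were high in acclimated 2, at 101 and 196 CPM against 24.2 to 44.3 and 52.8 to 73.1 CPM in acclimated 1 and 3. FBgn0201551, at 26.6, 7.76 and 17.4 CPM in acclimated 1, 2 and 3, was the 1 identifier low in acclimated 2.

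**Figure D3:**
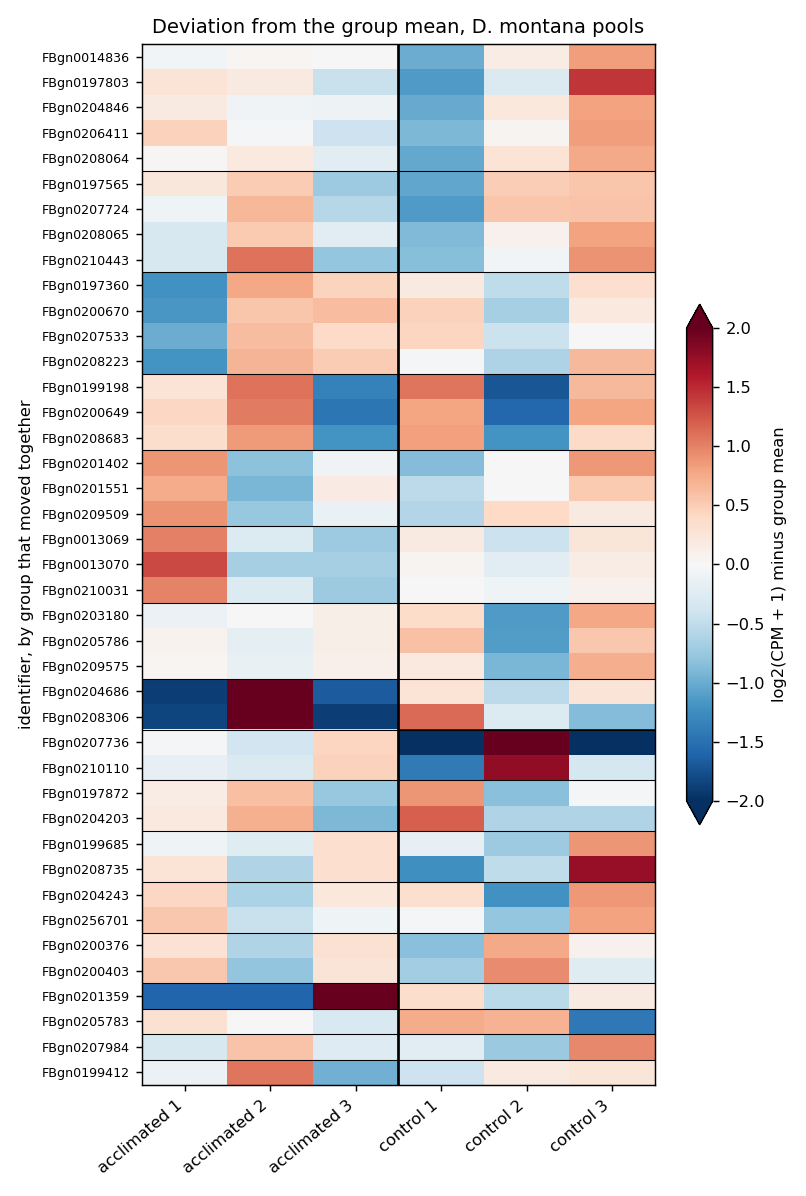
Deviation of log2(CPM + 1) from the mean of its group for the 41 identifiers (rows, identifiers that moved together between thin lines) in the 6 D. montana libraries (columns, acclimated left of the thick line, control right), with colours saturating at 2 log2 units. The rows split into many profiles, and red or blue blocks appear in every column, so that no column is high or low throughout.

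The 41 identifiers did not move as 1 group. For each pair, the correlation of the deviations from the group means was taken over the 6 libraries, which leave 4 independent values. The median r over the 820 pairs was 0.13, against 0.05 over the pairs of the 6597 other identifiers with at least 20 CPM. An r of 0.8 or more was found for 71 pairs, 8.66% against 8.18% of pairs among the others. An r of −0.8 or less was found for 30 pairs, 3.66% against 5.94%. The first of the 4 components of the deviations held 43.3% of their sum of squares in the 41 and 42.9% in the others. The deviations were not scaled, so in the 41 the few widest identifiers weigh most, such as FBgn0207736 at 5.21 log2 units in control 2. The pairs share libraries and their read depth, and the other identifiers have smaller deviations, of which counting error is a larger part.

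Grouping the identifiers so that every pair within a group had an r of at least 0.8 gave 13 groups holding 37 identifiers, with 4 left alone. No such grouping was made of the 6597 others, whose pairs reached that r about as often (8.18% against 8.66%). The groups are therefore a description only. Those of FBgn0204686 with FBgn0208306 and of FBgn0207736 with FBgn0210110 rested mainly on 1 high library each. There were 6 groups of 2, 4 of 3, 2 of 4 and 1 of 5. Groups were opposed as well as alike: the 4 identifiers low in acclimated 1 deviated there by −1.14 log2 units on average, and the group of FBgn0013069, FBgn0013070 and FBgn0210031 by 1.10.

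**Figure D4:**
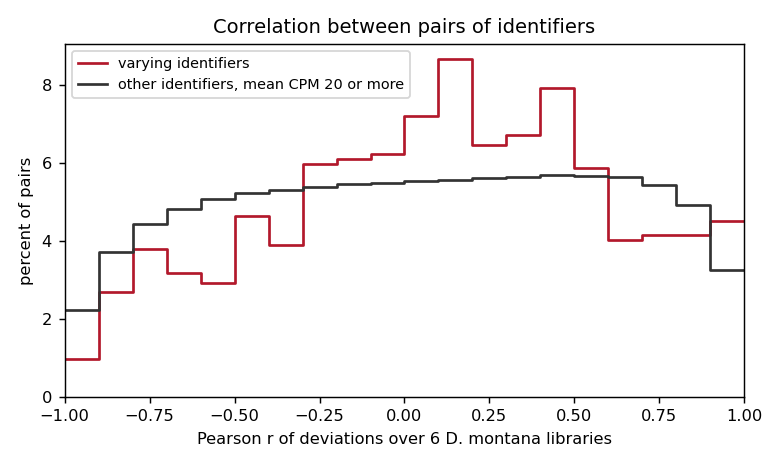
Percent of pairs (vertical axis) by Pearson correlation of deviations from the group mean over the 6 D. montana libraries (horizontal axis, bins of 0.1), for pairs of the 41 identifiers (red) and of the 6597 others (black). An r of 0.8 or more holds for 8.66% of the red and 8.18% of the black pairs.

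The spread of the identifiers was also read in the other D. montana group than the one that chose them, although the level criterion used all 6 libraries. Of the 29 chosen within controls, 7 reached a ratio of 3 within the acclimated pools (24.1%), against 0.286% of the 6638, and their median ratio there was 1.87 against 1.28. Of the 19 chosen within the acclimated pools, 7 reached it within controls (36.8%), against 0.437%, with a median of 2.07 against 1.32. The identifiers of the 7 are the same in both counts. A ratio of 2 among the acclimated pools was reached by 12 of the 29, against 2.73% of the 6638.

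The 41 had lower levels than the other identifiers, with a median of 41.5 CPM against 64.8 CPM and 56.1% against 38.5% under 50 CPM, and counting error is wider at low levels. Among identifiers of 20 to 50 CPM alone, 3 of 19 chosen within controls reached a ratio of 3 within the acclimated pools, against 0.273% of 2566, and 3 of 7 chosen within the acclimated pools reached it within controls, against 0.74%. FBgn0208306, one of the 7, met the level criterion through acclimated 2. With the mean taken without the highest library, the counts were 6 of 19, against 0.233% of 6451, and 6 of 15, against 0.295%. Both of these readings were added after the data were seen.

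In D. virilis 26 of the 41 had a mean of at least 20 CPM. Of these, 6 differed by a ratio of 3 or more between the acclimated pools (23.1%), against 3.1% of all 6329 identifiers at that level, and 2 between the control pools (7.69%), against 1.61%. The median ratio of the 26 was 1.93 against 1.27 in the acclimated and 1.43 against 1.21 in the control pools. Their median level was 82.3 CPM against 57.7 CPM for all. The 6 were FBgn0199198, FBgn0200649, FBgn0208683, FBgn0204686, FBgn0205783 and FBgn0205786, and all were higher in acclimated 2 than in acclimated 1. The 2 were FBgn0199412, at 226 and 70.8 CPM in the controls, and FBgn0208306, and both were higher in control 1. FBgn0204686, FBgn0200649 and FBgn0208683 had a mean of 20 CPM in D. virilis only through acclimated 2. Where the mean was taken without the highest library in both species, 3 of 18 reached a ratio of 3 between the acclimated pools, against 2.23% of 5921, and 1 of 18 between the control pools, against 1.08%. Groups of 2 pools give no test of these differences.

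A low level in D. virilis was more frequent in the 41 than in the 6638 that include them. A mean under 5 CPM there was found for 10 of the 41 (24.4%), against 159 of the 6638 (2.40%), and 2 of the 10, FBgn0201359 and FBgn0207533, had 0 reads in all 4 libraries. FBgn0201359 and FBgn0207736, both among the 10, met the D. montana level criterion through 1 library. The comparison was not matched for level, and the 41 had a lower median in D. montana (41.5 CPM) than the other identifiers (64.8 CPM). The cut of 5 CPM is also near the level of 3 counts in the D. virilis libraries, 2.28 to 4.61 CPM. Levels of the species are not compared further, since reads of both were counted against 1 set of identifiers and the species differ in pool size and in the share of reads placed more than once.

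The response to acclimation was tested in D. montana over all 9315 identifiers that passed the filter on low counts (the quasi-likelihood test of edgeR, p-values adjusted by Benjamini and Hochberg's method over all of them). Of the 41, 40 were tested, and FBgn0207736 was not, since 1 library held nearly all of its reads. Adjusted p was under 0.05 for 5 of the 40 (12.5%), 1 higher and 4 lower in acclimated flies. Over all identifiers tested, 1.67% were called, 1.16% higher and 0.515% lower. An unadjusted p under 0.05 was found for 15 of the 40, against 13.4% of all. The same 6 libraries chose the 41, whose spread enters this test, so the count describes them and nothing is read from it. Acclimated libraries were all above the controls for 2 of the 41 and all below them for 4, against 8.47% and 11% of the 6638.

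FBgn0204846 had a mean of 8.26 ± 1.0 CPM in acclimated flies, against 52.3 ± 29.3 CPM in controls (SD, n = 3 each). This was a log2 fold change of −2.65 (edgeR adjusted p = 0.0044, SE 0.41), and the groups did not overlap although the controls differed 3.49-fold by the rule. It was called in all 14 alternatives tried, with an adjusted p of at most 0.043. In D. virilis it had 9.11 and 14.4 CPM in acclimated and 20.0 and 31.1 CPM in control flies, a log2 fold change of −1.01 (edgeR adjusted p = 0.48, SE 0.54).

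FBgn0208735 had 34.3, 18.3 and 35.8 CPM in acclimated flies, against 58.9, 97.5 and 470 CPM in controls, with a log2 fold change of −2.83 (edgeR adjusted p = 0.025, SE 0.60). The groups did not overlap, and control 3 alone made the mean of the controls 209 CPM. Without control 3 its log2 fold change was −1.31 and it was still called (edgeR adjusted p = 0.018). Without acclimated 1, 2 or 3 it was not called, with an adjusted p of 0.12, 0.078 and 0.052. The adjusted p was 0.39 with edgeR's robust variance estimate, 0.12 with limma-voom and 0.095 with DESeq2.

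FBgn0207984 was the 1 identifier called higher, at 37.6, 70.4 and 39.4 CPM in acclimated flies against 9.81, 6.59 and 23.7 CPM in controls. Its log2 fold change was 1.84 (edgeR adjusted p = 0.018, SE 0.37), and it was not called without control 2 (0.091), without acclimated 2 (0.069), with DESeq2 (0.09) or with the robust estimate (0.082). The other identifiers called lower were FBgn0197803 (log2 fold change −2.34, edgeR adjusted p = 0.038, SE 0.54) and FBgn0205786 (−1.60, edgeR adjusted p = 0.019, SE 0.33). Without control 3 the log2 fold change of FBgn0197803 was −1.16 (edgeR adjusted p = 0.068), and its adjusted p was 0.13, 0.077 and 0.12 without acclimated 1, 2 and 3. For FBgn0205786 it was 0.085 without acclimated 1 and 0.064 without acclimated 2. Both missed the threshold with limma-voom (adjusted p = 0.16 and 0.084), with DESeq2 (0.15 and 0.10) and with the robust estimate (0.39 and 0.27).

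**Figure D5:**
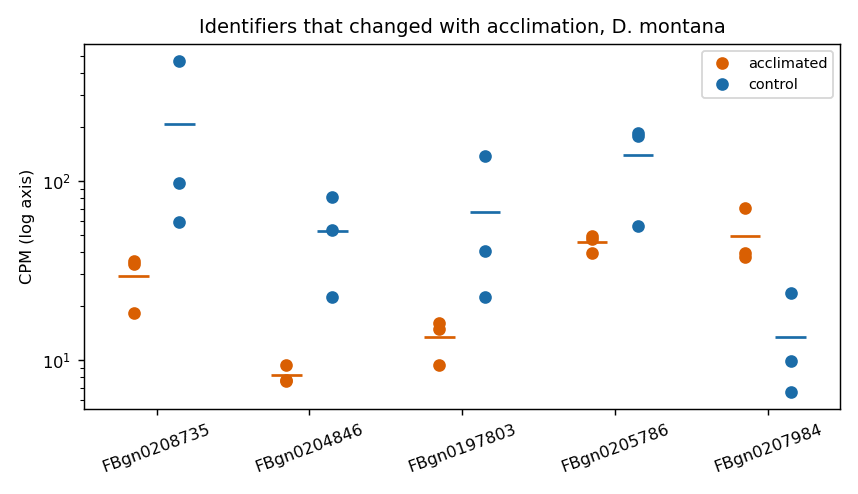
CPM on a log axis for the 5 of the 41 identifiers (horizontal axis) called with acclimation in D. montana (edgeR adjusted p under 0.05). Each library is 1 point, with a line at the mean of the 3 acclimated (orange, left) and the 3 control libraries (blue, right). The same libraries chose the 41. The groups do not overlap for any of the 5, and FBgn0204846 shows tight acclimated values of 7.60 to 9.41 CPM beside controls of 22.5 to 81.1 CPM.

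Several of the fold changes that were large but not called rested on 1 pool. A log2 fold change of at least 1 in size was found for 12 of the 40, against 2.37% of all identifiers tested, and 7 of the 12 were not called. For FBgn0204686 it was 3.81 (edgeR adjusted p = 0.11, SE 1.09), for FBgn0208306 3.44 (edgeR adjusted p = 0.18, SE 1.15) and for FBgn0201359 3.27 (edgeR adjusted p = 0.15, SE 1.03). Without the high library these values were −0.04, −0.79 and −0.25. With another acclimated library left out they could pass (adjusted p = 0.016 and 0.034 for FBgn0204686 and FBgn0208306 without acclimated 3, and 0.034 for FBgn0201359 without acclimated 2), as they did with no filter on low counts (0.0044 for FBgn0204686, 0.019 for FBgn0208306 and 0.014 for FBgn0201359). DESeq2 gave none of these 3 an adjusted p. FBgn0210110, described below, had a log2 fold change of −1.21 with every library and of 0.16 without control 2. For FBgn0199412, FBgn0201402 and FBgn0204243 (edgeR adjusted p = 0.098, 0.14 and 0.13) the direction held whichever library was left out, at 0.74 to 1.85, 0.83 to 2.09 and −1.80 to −0.86. Some of these fits called them: FBgn0199412 without acclimated 3 (edgeR adjusted p = 0.0064), FBgn0201402 without acclimated 2 (0.042) or control 3 (0.0255), and FBgn0204243 without control 2 (0.019). With no filter on low counts all were called (edgeR adjusted p = 0.012, 0.023 and 0.018). The median standard error of the log2 fold change was 0.38 in the 40 and 0.21 in all identifiers tested.

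Leaving out 1 pool brought a call for FBgn0013070. It had a log2 fold change of −0.06 (edgeR adjusted p = 0.97, SE 0.40) with every library, and of −1.09 (edgeR adjusted p = 0.0092, SE 0.16) without acclimated 1. This value was found in leaving out each library in turn, and the library was not set aside for any reason known from the labels.

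In D. virilis 31 of the 41 were tested for acclimation among 7692 identifiers, of which 0.312% were called, 0.182% higher and 0.13% lower. Of the 31, 2 were called, 1 in each direction, 8 had an unadjusted p under 0.05 (12.8% of all), and 7 had a log2 fold change of at least 1 in size (8.91% of all). FBgn0210110 rose to 68.9 and 83.5 CPM in acclimated flies, against 16.9 and 11.8 CPM in controls (log2 fold change 2.54, edgeR adjusted p = 0.029, SE 0.35). DESeq2 gave FBgn0210110 no adjusted p in D. virilis. FBgn0201551 fell to 97.2 and 109 CPM in acclimated flies, against 287 and 325 CPM in controls (log2 fold change −1.46, edgeR adjusted p = 0.036, SE 0.21). The D. virilis pools of each group lay close together for both, with ratios of at most 1.40, and close pools favour a call. No difference in spread between the species is read from this. The rule chose both identifiers for a spread above 3-fold in 1 D. montana group. In the other D. montana group the ratio was 1.67 for FBgn0210110 and 2.07 for FBgn0201551. Neither was called without control 1 (edgeR adjusted p = 0.053 for FBgn0210110 and 0.051 for FBgn0201551) or control 2 (0.16 and 0.22), and limma-voom gave 0.058 for FBgn0210110.

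In D. montana FBgn0210110 had 13.3, 12.2 and 21.0 CPM in acclimated and 8.66, 87.6 and 19.1 CPM in control libraries, a log2 fold change of −1.21 (edgeR adjusted p = 0.38, SE 0.57). The difference in response, D. montana minus D. virilis, was −3.81 in the fit of all 10 libraries (edgeR adjusted p = 0.13, SE 0.94), and −2.43 (adjusted p = 0.18) without D. montana control 2. It passed without D. montana control 1 (−4.30, adjusted p = 0.018), with no filter on low counts (adjusted p = 0.0024) and with a filter at 1 CPM (0.034). Of 40 identifiers tested for a difference in response, edgeR called 0, with 8 at an unadjusted p under 0.05, and limma-voom and DESeq2 called 0 as well. Of all 9811 tested, 0.224% were called, 0.143% with a positive and 0.0815% with a negative difference, and 11.4% had an unadjusted p under 0.05.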

How the data were processed

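The deposited files hold raw read counts per identifier, made by the authors. The submitters' processing notes name HTSeq. Which aligner, build, annotation and strand setting were used is not given in the sources used here. Each file ends in 5 counters of unassigned reads, which entered neither library sizes nor tests. The gene rows held 23.1% to 26.4% of all reads of the D. montana libraries and 6.85% to 9.55% of those of D. virilis.

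Levels are CPM over the sum of gene reads. Acclimation was tested with edgeR 4.0.16 (quasi-likelihood F-test, limma 3.58.1, R 4.3.3) on the counts, with TMM scaling, filterByExpr at its defaults (10 counts per library, 15 in all) and Benjamini-Hochberg adjustment, each species alone, and the difference in response in a fit of all 10 libraries. Standard errors were obtained by dividing the unshrunken log2 fold change by the root of its F statistic. The fits were tested on simulated data. Alternatives included DESeq2 1.42.0, limma-voom and leaving out each library. Counting intervals are exact binomial.

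The identifiers and analyses were chosen with earlier results of these data known. Identifiers were named by rule: per library, the clearest high and low case; the widest ratios; those widest in both groups; those called with acclimation, at most 2 per direction and species; and those nearest the limit. Others were named after their values were seen.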

Additional observations from a re-analysis of the deposited data

Results flagged for a closer look

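Outside the gene counts, reads placed at more than 1 position made up a share 6.49 percentage points higher in acclimated than in control D. virilis libraries, with both acclimated libraries (82.7% and 83.4%) above both controls (75.6% and 77.6%). Its part in the D. virilis values of the 41 identifiers was not tested. Groups of 2 or 3 libraries were too small to be screened for single outlying samples.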

How the results depend on the processing

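The number of identifiers meeting the rule depended on its limits. It was 41 as given, 26 with a pseudocount of 5 CPM, 79 with a mean of at least 10 CPM, 18 with at least 50 CPM, 391 with a ratio of at least 2 and 13 with at least 4, and 25 to 35 with 1 library left out. TMM-scaled library sizes gave 51, of which 40 were among the 41. The library that stood apart was the same in 47 of 48 cases with TMM scaling and in 48 of 48 with a pseudocount of 0.5 or 5. Of the 40 tested in D. montana, 5 were called, 12 with no filter on low counts, 1 with DESeq2, 2 with limma-voom, 1 with the robust variance estimate, and 3 to 6 with 1 library left out. FBgn0204846 was called in each of these. In D. virilis 2 were called, 6 with no filter, 4 with a filter at 1 CPM, and 0 to 4 with 1 library left out. The difference in response was called for 0, for 3 with no filter, for 1 with a filter at 1 CPM, and for 0 to 1 with 1 library left out. No identifier called in the main tests changed sign in any alternative. Same-numbered libraries deviated from their group means with correlations of −0.22, −0.11 and −0.13 in D. montana, and of −0.05 in D. virilis. Deviations cancel within a group, and in D. virilis the libraries of a group mirror each other. These values therefore cannot settle whether replicate numbers paired the pools. A replicate block gave 8 calls in D. montana in place of 5, 2 in D. virilis and 0 for the difference in response. The cause of these shifts was not tested. In D. virilis, library sizes without the 20 most abundant identifiers put the median log2 fold change of all tested at −0.14, against −0.01.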
